A study of Mus musculus with 4 samples.

Results

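Confluent 3T3-L1 cells in which lamp2a had been knocked down, labelled LAMP2A- Day 0, were compared with control 3T3-L1 cells at the same stage, labelled Control Day 0. 3T3-L1 is an established mouse embryo fibroblast line whose cells behave as preadipocytes: at confluence they stop dividing and, once given hormones, turn into fat cells. Both cultures had been grown to confluence in DMEM with fetal bovine serum and antibiotics, and neither had yet received the insulin, dexamethasone and 3-isobutyl-1-methylxanthine that start differentiation. The values therefore describe uninduced cells. The comparison takes 2 of the 4 arrays of the series, 1 for each condition, and the other 2 are the matching knockdown and control cultures after 2 days of induction. Each array read total RNA in 1 colour with Cy3. The sources used here do not tell how the knockdown was made or whether its cells are 1 clone. Nothing in the labels says that a condition was sampled more than once, so every difference below is the ratio of a pair of arrays, replicate error is unknown, and nothing was tested.

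The array carried 55681 non-control probes, of which 27656 could be named, for 20972 genes. A probe was kept if it read well above background on both day 0 arrays and over 400 units of processed signal on at least 1 of them. This left 21920 probes, of which 15046 were named and covered 11830 genes, each represented by its brightest kept probe. Just inside the signal limit lay Alox12b, at 400.016 in knockdown and 125 in control cells, and Sik3, at 400.079 in knockdown and 302 in control cells. Just outside it lay Tmem69, at 396.786 in knockdown and 400 in control cells. Levels are log2 processed signals minus the 75th percentile of their array, ratios are knockdown over control, and a gene was counted as higher or lower when it differed by at least 2-fold.

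Of the splice forms of LAMP2, a protein of the lysosomal membrane, LAMP2A is the receptor of chaperone-mediated autophagy, in which HSC70 (Hspa8) recognises cytosolic proteins bearing a short targeting motif and LAMP2A carries them across the lysosomal membrane to be degraded. The other splice forms of Lamp2 share most of the protein but differ in its tail and do not serve this route. Preadipocytes are fibroblast-like cells that make collagen and other matrix, hold a contractile cytoskeleton, and stay undifferentiated under Wnt, Notch, TGF-beta and other signals until hormones raise C/EBP-beta, C/EBP-delta and then PPAR-gamma and C/EBP-alpha.

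Of the 2 Lamp2 probes, the probe designed on NM_001017959 read 7931 in knockdown and 31300 in control cells, 4.13-fold lower, with a log2 ratio of -2.05. The probe designed on NM_010685 read 99348 in knockdown and 122000 in control cells, 1.28-fold lower, with a log2 ratio of -0.36. The array files do not say which splice form either probe reads. In the induced cultures of day 2 the first probe read 3575 in knockdown and 14116 in control cells, 3.52-fold lower, and the other 69061 in knockdown and 84004 in control cells, 1.09-fold lower. Knockdown cells thus read lower than control cells on both probes and on both days, by a larger factor on the NM_001017959 probe.

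The arrays differed in ways that bear on dim genes. The control day 0 array came from a different slide from the other 3, so slide and condition cannot be told apart at day 0. At day 0 the knockdown array had 88.6% of its spots well above background and the control array 67.4%. At day 2 the shares were 78.7% for knockdown and 84.2% for control. The deposited signals of the control day 0 array carry 3 significant digits, those of the other arrays 7, and the scanner software had applied no surface detrending to the knockdown day 0 array alone. Spike-in RNAs, meant to be added in equal amounts to every sample, gave log2 ratios of -0.31 to -0.13 for the 7 that read over 400, and 0.29 to 1.34 for the 3 dimmer ones. The repeat spots of a probe within an array gave the log2 ratio a standard deviation of 0.0588 over 1000 units, 0.213 between 400 and 1000 and 0.319 below, which covers error within the arrays only. Genes of olfactory, vomeronasal and trace amine-associated receptors, which are not typical of fibroblasts, had a median signal of 38.6 on the knockdown and 9.55 on the control array. Of the 98 that were kept, 61 were higher and 7 lower in knockdown cells, while of the 25 over 400 on both arrays 4 were higher and 0 lower.

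In knockdown cells 881 of the 11830 genes (7.45%) read higher by 2-fold or more and 457 (3.86%) lower, with a median log2 ratio of -0.01. In RNA from a whole culture, fewer cells that use a gene and less of its RNA per cell cannot be told apart. Genes were then split into 5 classes of 2366 by brightness. The dimmest class held 642 of the higher and 173 of the lower genes at a median of 0.41, and the medians of the other classes lay between -0.07 and -0.01. Among the 10693 genes that read over 400 on both arrays, 325 (3.04%) were higher and 309 (2.89%) lower, with a median of -0.04. Most higher readings are therefore given below with both signals, and a control signal under 400 marks the range in which the receptor genes and dim spike-ins also read higher. The split of calls also moved with the scaling: 65.8% of called genes were higher in the values used here, against 52.2% after quantile normalization, 50.3% after cyclic loess and 79.9% after scaling to the spike-ins. Scaling to the spike-ins, chosen after the data were seen, raised the median of all genes by 0.23 on the log2 scale, and log2 ratios below are relative to the 75th percentile unless said otherwise. Where 2 or more probes of a gene were kept, 646 of 2732 genes had probes of both signs, and 9 of the 141 called ones did.

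**Figure D1:**
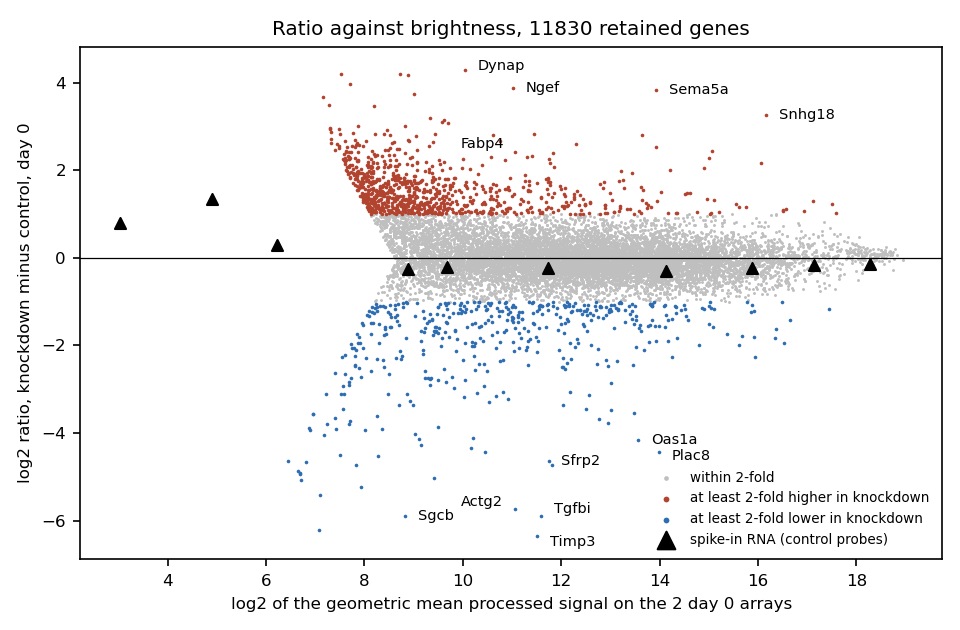
Log2 ratio of knockdown over control at day 0 against the log2 of the geometric mean processed signal, 1 point per gene, 11830 genes, with spike-in RNAs as triangles. The points past 2-fold are red where higher and blue where lower in knockdown cells, the higher ones crowd at the dim end, and Timp3, Tgfbi and Actg2 lie at the bottom.

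The genes furthest below control included those of secreted matrix proteins, proteases and their inhibitors, and contractile actin. Timp3, an inhibitor of metalloproteinases that stays bound to the matrix, read 331 in knockdown and 25800 in control cells, 81.5-fold lower. Tgfbi, a secreted protein that links collagens to integrins, read 411 in knockdown and 23300 in control cells, 59.2-fold lower. Actg2, the gamma actin of smooth muscle, read 302 in knockdown and 15300 in control cells, 53-fold lower. All 3 were bright in control cells and near or under 400 in knockdown cells. Sgcb, the beta subunit of the sarcoglycan complex that ties the cytoskeleton to the matrix through dystroglycan, read 60.4 in knockdown and 3440 in control cells. Its 3 kept probes gave log2 ratios of -7.71 to -5.90, so each put knockdown cells far below control. Cdo1, which breaks down cysteine, read 122 in knockdown and 3810 in control cells, 32.5-fold lower. Mmp3, the protease stromelysin 1, was 26.8-fold lower, at 707 in knockdown and 18100 in control cells. Rftn1, a lipid raft protein, read 18.8 in knockdown and 529 in control cells, 29.4-fold lower. These genes were also far below control in the day 2 pair, which shares no array with the day 0 pair: Timp3 31.2-fold lower, Tgfbi 65.4-fold lower, Actg2 17.3-fold lower, Sgcb 33.5-fold lower, Cdo1 37.6-fold lower, Mmp3 31.2-fold lower and Rftn1 20.2-fold lower. Other genes far below control at day 0 were dim in both day 2 cultures: Kndc1, a Ras exchange factor, read 15.9 in knockdown and 1140 in control cells at day 0 and 4.4 in knockdown and 3.74 in control cells at day 2. Opn5, an opsin, read 21.4 in knockdown and 879 in control cells, and Mybpc1, a muscle filament protein, 40.5 in knockdown and 1460 in control cells, against 14.5 and 28 (Opn5) and 23.8 and 30.1 (Mybpc1) for knockdown and control cells at day 2. The remaining genes of the 15 furthest below control were Zdhhc11 (-5.08), Ccdc68 (-4.94), Olfr121 (-4.91), Ccdc63 (-4.72) and Avp (-4.67). At day 2 these 5 were dim in both cultures too, with signals between 8.29 and 40.6, so 8 of the 15 had no bright culture to compare there.

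Among genes bright on both arrays, picked after their values were seen, Plac8 read 3599 in knockdown and 74400 in control cells, 21.6-fold lower. Ctsk, the collagen-degrading cathepsin K, read 2195 in knockdown and 28700 in control cells, 13.7-fold lower. Mfap5, a glycoprotein of elastic microfibrils, read 1993 in knockdown and 24300 in control cells, 12.7-fold lower. Agtr2, a receptor of angiotensin II, read 1345 in knockdown and 13300 in control cells, 10.3-fold lower, and 10.1-fold lower at day 2. In all 4, control cells were bright and knockdown cells still above the limit of 400.

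On the higher side, Snhg18, a non-coding RNA that hosts a small nucleolar RNA, read 232643 in knockdown and 23200 in control cells, 9.59-fold higher, and was the brightest of the 15 genes furthest above control. Sema5a, a transmembrane semaphorin that guides axons, read 60117 in knockdown and 4050 in control cells, 14.2-fold higher. The pair lie next to each other on chromosome 15, with 150 bases between their ends in the RefSeq annotation, and the only other gene annotated there, Snord123, lies inside Snhg18. They were 8.1-fold higher and 4.93-fold higher at day 2. Ngef, a guanine nucleotide exchange factor, read 8109.8 in knockdown and 530 in control cells, 14.6-fold higher. At day 2 it read 50 in knockdown and 39.7 in control cells, so both induced cultures were dim. Dynap, a membrane protein reported to act on Akt signalling, read 4782 in knockdown and 235 in control cells, 19.5-fold higher, and 10.3-fold higher at day 2. Sis, the sucrase-isomaltase of the small intestine, was 9.08-fold higher at day 0, 1993 in knockdown and 210 in control cells, and 10.9-fold higher at day 2. Chd7, a chromatin remodeller, read 531 in knockdown and 45 in control cells at day 0, 11.3-fold higher, and was 10.3-fold higher at day 2. The control signals of several others lay in the dim range: Blnk, an adaptor of B-cell receptor signalling, read 1849 in knockdown and 96.4 in control cells, Aspg, an asparaginase, 2060.3 in knockdown and 109 in control cells, Padi2, a peptidylarginine deiminase, 1934 in knockdown and 138 in control cells, Myh1, a skeletal muscle myosin, 523 in knockdown and 39.1 in control cells, and Ano1, a calcium-activated chloride channel, 2289 in knockdown and 254 in control cells. At day 2 Blnk was 2.14-fold higher, Aspg 4.83-fold higher and Ano1 3.28-fold higher, while Myh1 had a log2 ratio of 0.01 and Padi2 was dim in both cultures, at 12.6 in knockdown and 18 in control cells.

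Bright on both arrays, and again picked after their values were seen, were Gsdmd, the pore-forming gasdermin D (7621 in knockdown and 1031 in control cells, 7.06-fold higher), and Mgst2, a microsomal glutathione transferase (34704 in knockdown and 4720 in control cells, 7.03-fold higher). Tgm2, the crosslinking enzyme transglutaminase 2, read 12766 in knockdown and 2020 in control cells, 6.04-fold higher. Slpi, a secreted protease inhibitor, read 81262 in knockdown and 14300 in control cells, 5.43-fold higher. Gdnf, a neurotrophic ligand of the TGF-beta superfamily, read 8526 in knockdown and 1550 in control cells, 5.26-fold higher. Ramp3, a partner of the calcitonin-like receptor, was 6.36-fold higher, at 4465 in knockdown and 671 in control cells. In the day 2 pair these genes were 7.5-fold higher (Gsdmd), 7.14-fold higher (Mgst2), 6.44-fold higher (Tgm2), 12.6-fold higher (Slpi), 16.4-fold higher (Gdnf) and 12.1-fold higher (Ramp3). Not past 2-fold at day 2 were Lbp, which binds bacterial lipopolysaccharide (4218 in knockdown and 582 in control cells at day 0, 6.93-fold higher, and 0.80 on the log2 scale at day 2), Tcim (6201 in knockdown and 1180 in control cells, 5.02-fold higher, and 0.90 at day 2) and Edil3, a secreted integrin ligand (5759 in knockdown and 1110 in control cells, 4.96-fold higher, and 0.85 at day 2).

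The day 2 pair holds cultures given inducer for 2 days and read on a single slide, and was used only to see which day 0 differences were also present there. At day 2, 362 of 11779 genes (3.07%) were higher and 459 (3.9%) lower. Of the 426 genes lower at day 0 that could be compared, 202 (47.4%) were also lower at day 2 and 4 (0.939%) were higher, at a median of -0.94. Of the 872 genes higher at day 0, 122 (14%) were also higher and 14 (1.61%) lower, at a median of 0.05. Restricted to genes over 400 on both day 0 arrays, 86 of 324 higher genes (26.5%) were higher again and 8 (2.47%) lower, at a median of 0.35, and 142 of 305 lower genes (46.6%) were lower again and 3 higher, at a median of -0.93. The background there was 302 of 10680 genes higher (2.83%) and 372 lower (3.48%), at a median of 0.04. 

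**Figure D2:**
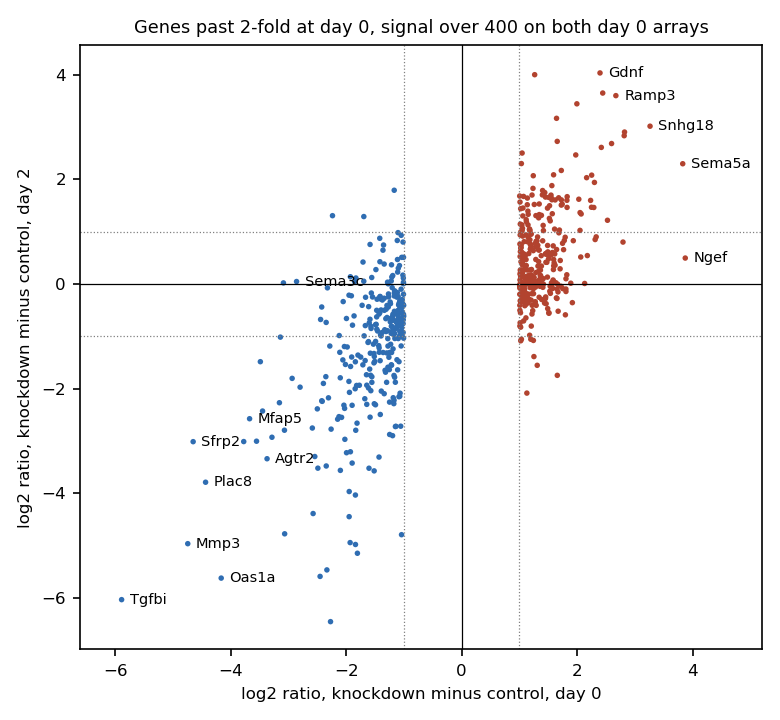
Log2 ratio of knockdown over control at day 2 against the same at day 0, 1 point per gene past 2-fold at day 0 with signals over 400 on both day 0 arrays. Lower genes (blue) extend into the bottom left, with Tgfbi at -5.89 and -6.03, and of the higher genes (red) 226 lay above 0 and 98 below 0 at day 2, with Ngef at 0.50.

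The ratios also followed chromosomes, an observation made after the values were seen. Over the genes that read over 400 on both arrays, the 549 genes of chromosome 3 had a median log2 ratio of 0.36, and 84.5% of them lay above 0. Along that chromosome, 10 successive groups of its genes, nearly equal in number, had medians of 0.26 to 0.41, so the shift was seen over its whole length. The 676 genes of chromosome 5 had a median of 0.15, with 68.2% above 0, and its 10 groups ran from 0.10 to 0.28. The 350 genes of chromosome 14 had a median of -0.26, with 25.4% above 0, and its 10 groups ran from -0.66 to -0.04. The medians of the other 17 chromosomes lay between -0.18 and 0.02, with 31.7% to 52.5% of genes above 0. At day 2 the medians were 0.42 for chromosome 3, 0.27 for chromosome 5 and -0.17 for chromosome 14, against -0.08 to 0.10 for the other 17. Set against the median of all genes, chromosome 3 lay 0.38 to 0.41 higher, chromosome 5 0.18 to 0.19 higher and chromosome 14 0.20 to 0.22 lower under each of 9 settings of background, scaling and probe choice. Past 2-fold on chromosome 3 lay 41 higher genes (7.47%) and 8 lower ones (1.46%). Without chromosome 3, 284 of 10144 genes (2.80%) were higher and 301 (2.97%) lower. DNA was not measured here. Of the genes named here, Fabp4, Fabp5, Ccna2, Cenpe, Ccn1, Gbp2, Lef1, Mgst2, Sis, Sfrp2 and Ctsk lie on chromosome 3.

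**Figure D3:**
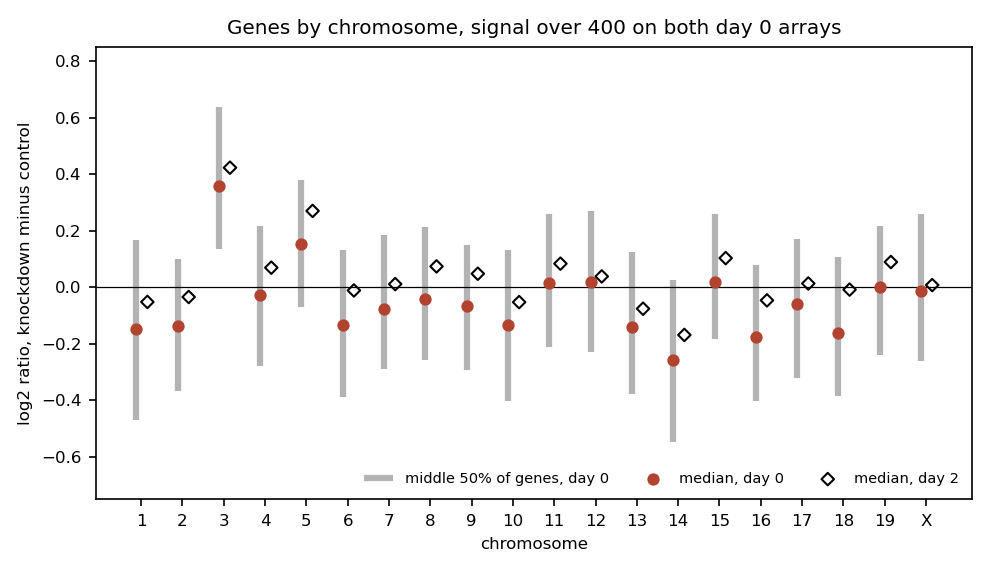
Median log2 ratio of knockdown over control by chromosome at day 0 (filled) and day 2 (open), for genes over 400 on both day 0 arrays, with bars for the middle 50% of genes at day 0. Chromosome 3 stands highest on both days, at 0.36 and 0.42, and chromosome 14 lowest, at -0.26 and -0.17.

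The gene lists that follow were chosen with earlier results of these data known, and their counts are to be read against the 7.45% of genes higher and 3.86% lower. Among the 13 kept components of chaperone-mediated autophagy, 0 were higher and 0 lower, at a median of 0.05 that turned negative under other scalings. The chaperone Hspa8 read 233085 in knockdown and 194000 in control cells (log2 ratio 0.20) and its co-chaperone Hsp90aa1 read 86016 in knockdown and 58100 in control cells (0.50). Ctsa, the protease that cleaves LAMP2A at the lysosome, read 194833 in knockdown and 221000 in control cells (-0.25). Tfeb, the master regulator of lysosomal genes, read 400.3 in knockdown and 339 in control cells (0.18). No component other than Lamp2 itself lay past 2-fold on any of its kept probes.

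Genes of the lysosome and of macroautophagy lay mostly a little below control. Of 32 lysosomal enzymes and membrane proteins, 28 were below 0, at a median of -0.44 against -0.01 for all genes, while 1 was lower and 1 higher by 2-fold. The higher one was Cln3, a lysosomal membrane protein, at 1802 in knockdown and 826 in control cells (2.09-fold higher), which held in 5 of 8 other settings and was within 2-fold at day 2 (-0.07). Hexa, a beta-hexosaminidase subunit, read 30093 in knockdown and 56800 in control cells (-0.98), and Lamp1, the paralogue of Lamp2, 238998 in knockdown and 283000 in control cells (-0.31). Of 26 macroautophagy genes 23 were below 0, at a median of -0.41, and 0 passed 2-fold. Among them Sqstm1, the cargo receptor p62, read 20063 in knockdown and 37100 in control cells (-0.95), and Map1lc3b, the autophagosome marker LC3B, 44266 in knockdown and 68467 in control cells (-0.69). At day 2 the medians of the 2 lists were -0.15 and -0.06. Of 10 cathepsins, 2 were lower: Ctsk, described above, and Ctsh, at 185 in knockdown and 861 in control cells (4.86-fold lower, and 9.25-fold lower at day 2). Ctsw was higher, at 404 in knockdown and 155 in control cells, in the dim range, and was 0.03 at day 2; the call held in 6 of 8 other settings.

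**Figure D4:**
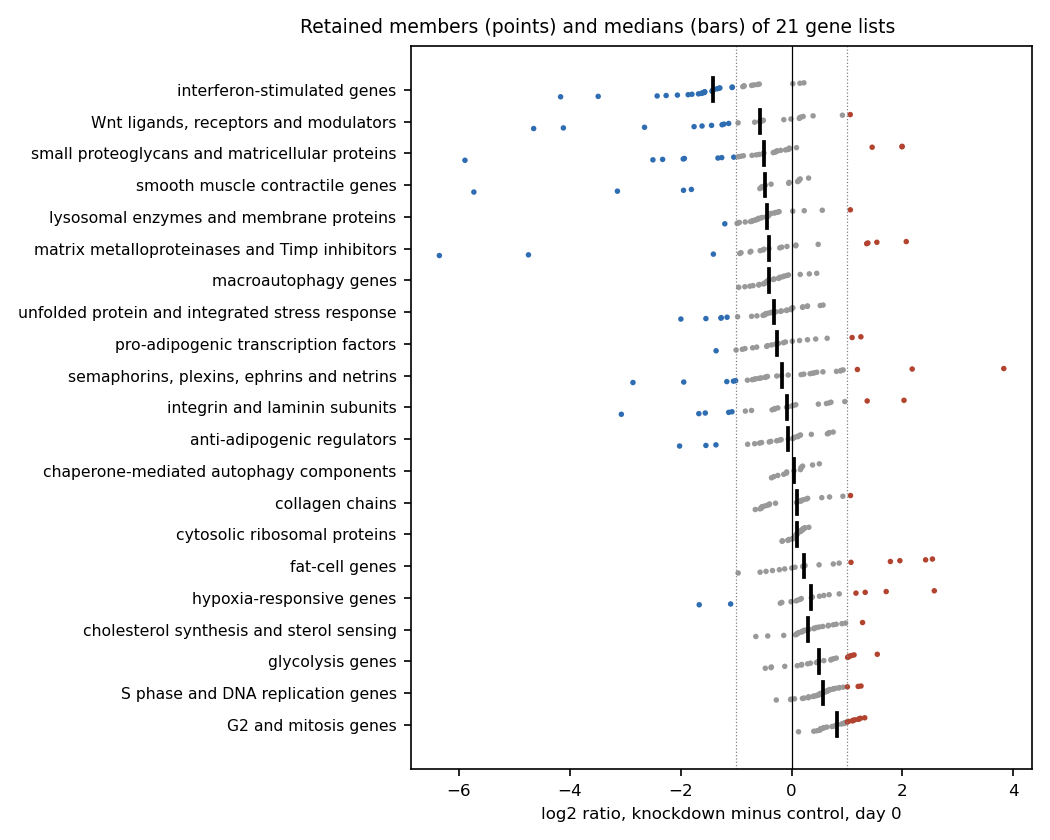
Log2 ratio of knockdown over control at day 0 for each kept member of 21 gene lists, with a bar at each list's median and dotted lines at 2-fold. Interferon-stimulated genes lie furthest to the left, with a median of -1.41, and genes of G2 and mitosis furthest to the right, at 0.82.

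Interferon-stimulated genes were the list with the lowest median. These genes are switched on when type I interferon activates the factor ISGF3, which holds STAT2 and IRF9 and binds the interferon-stimulated response element (ISRE) in their promoters. The promoters of 4 genes are shown because these were bright and lower in knockdown cells and because each holds the element. The windows run from 250 bases before to 50 after the annotated start in RefSeq (GRCm38.p6), 5′ to 3′ on the gene's strand, and capitals mark each match to GAAANNGAAA on either strand, overlapping matches being joined.
Oas1a, chr5:120907476-120907775, minus strand: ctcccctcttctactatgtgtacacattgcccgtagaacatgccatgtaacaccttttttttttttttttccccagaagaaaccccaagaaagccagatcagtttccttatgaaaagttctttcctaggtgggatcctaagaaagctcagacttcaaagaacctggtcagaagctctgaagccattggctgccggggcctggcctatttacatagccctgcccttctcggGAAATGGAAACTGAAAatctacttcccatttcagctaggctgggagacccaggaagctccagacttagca
Bst2, chr8:71537423-71537722, minus strand: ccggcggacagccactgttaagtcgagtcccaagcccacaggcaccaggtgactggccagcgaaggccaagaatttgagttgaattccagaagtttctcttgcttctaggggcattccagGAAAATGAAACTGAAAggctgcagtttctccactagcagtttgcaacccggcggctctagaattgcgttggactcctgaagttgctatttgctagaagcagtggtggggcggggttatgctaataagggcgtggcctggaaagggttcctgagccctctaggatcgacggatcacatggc
Isg15, chr4:156200769-156201068, minus strand: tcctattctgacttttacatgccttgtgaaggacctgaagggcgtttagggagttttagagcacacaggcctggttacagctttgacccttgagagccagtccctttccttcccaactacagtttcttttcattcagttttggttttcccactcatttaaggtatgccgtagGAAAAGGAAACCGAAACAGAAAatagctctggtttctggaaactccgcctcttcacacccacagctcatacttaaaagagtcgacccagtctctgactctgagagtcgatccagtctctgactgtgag
Ifit1, chr19:34640639-34640938, plus strand: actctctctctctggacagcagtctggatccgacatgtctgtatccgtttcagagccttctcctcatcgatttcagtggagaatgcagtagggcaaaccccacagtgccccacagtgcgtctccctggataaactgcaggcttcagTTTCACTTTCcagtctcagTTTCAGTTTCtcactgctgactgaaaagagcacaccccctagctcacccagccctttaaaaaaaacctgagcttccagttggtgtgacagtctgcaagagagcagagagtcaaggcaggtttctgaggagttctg
Oas1a held 2 matches, Bst2 2, Isg15 3 and Ifit1 2. Of the 25 list members with a window, 16 (64%) held a match, against 1079 of 27025 genes with a window (3.99%) and 351 of 9479 kept genes (3.70%). A match was present in 12 of the 18 lower members (66.7%) and in 4 of the 7 within 2-fold (57.1%), and is a description of the sequence only.

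Of 34 kept interferon-stimulated genes, 24 were lower and 0 higher in knockdown cells, 31 lay below 0 and the median log2 ratio was -1.41. Of these genes 33 read over 400 on both arrays, outside the dim range. Oas1a, which makes the 2-5A messenger that activates RNase L, read 2935 in knockdown and 50300 in control cells, 17.9-fold lower, and its 2 probes gave -4.16 and -3.84. Its relative Oas2 read 2529.7 in knockdown and 27100 in control cells, 11.2-fold lower. Usp18, which removes ISG15 from proteins and damps the interferon receptor, read 2984 in knockdown and 15300 in control cells, 5.36-fold lower. Rtp4, a chaperone of receptors, read 9122 in knockdown and 41800 in control cells, 4.79-fold lower. In all 4 the knockdown signal was well over 400 and the control signal far brighter. Ifih1, the RNA sensor MDA5, was 4.16-fold lower, at 1133 in knockdown and 4510 in control cells. The antiviral membrane protein Bst2 (tetherin) read 28913 in knockdown and 96000 in control cells, 3.47-fold lower. Isg15, the ubiquitin-like modifier, read 49275 in knockdown and 145000 in control cells, 3.08-fold lower, and Ifit1, which binds foreign RNA caps, 10475 in knockdown and 29800 in control cells, 2.97-fold lower. The ISGF3 subunits Stat2 and Irf9 were lower too: Stat2 read 9619 in knockdown and 27200 in control cells (2.96-fold lower) and Irf9 9059.9 in knockdown and 25700 in control cells (2.97-fold lower). Irf7, the factor that amplifies interferon production, was 2.53-fold lower, at 1103 in knockdown and 2670 in control cells. The weakest of the calls were Rsad2, the antiviral enzyme viperin (1463 in knockdown and 2940 in control cells, past 2-fold in 5 of 8 other settings), and Igtp, an interferon-inducible GTPase (12429.8 in knockdown and 24900 in control cells, past 2-fold in 6 of 8 other settings). Above 0 lay Ifit2 at 0.02, Gbp2 at 0.15 and Oasl1 at 0.22. With chromosome 3 left out, 23 of 31 members were lower, at a median of -1.42.

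At day 2, 14 members were lower and 1 higher, at a median of -0.74. Oas1a was 49.1-fold lower, Ifit3 9.89-fold lower and Rtp4 6.83-fold lower there, while Stat2 was at -0.17 and Irf7 at -0.27. A separate list of interferon receptors, kinases and RNA or DNA sensors does not hold Stat2, Irf9, Irf7 or Ifih1. Of its 21 kept members 0 were higher and 0 lower at day 0, at a median of -0.15, which turned positive when scaled to the spike-ins. The receptor chains Ifnar1 and Ifnar2 had log2 ratios of -0.15 and 0.08, the kinase Jak1 -0.40, the DNA sensor Cgas 0.62 and the RNA-sensing receptor Tlr3 -0.90.

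**Figure D5:**
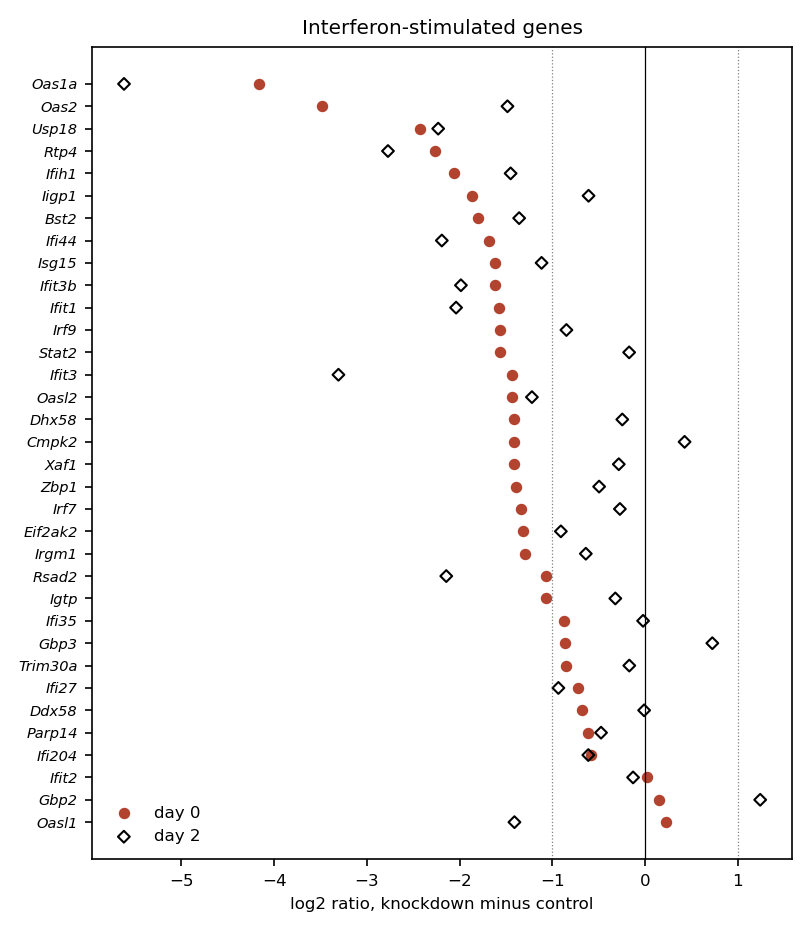
Log2 ratio of knockdown over control for the 34 kept interferon-stimulated genes at day 0 (filled) and day 2 (open), with dotted lines at 2-fold. At day 0, 24 lie left of the lower line, from Oas1a at -4.16 to Igtp at -1.07, and at day 2 Gbp2 lies right of the upper line at 1.24.

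The other immune lists held fewer genes past 2-fold. Of 18 genes of MHC class I presentation 3 were lower and 0 higher: Nlrc5, the transactivator of class I genes (639 in knockdown and 1830 in control cells, 2.99-fold lower), Tap1, a subunit of the peptide transporter (1499 in knockdown and 3370 in control cells, 2.35-fold lower), and Psmb8, an immunoproteasome subunit (1037 in knockdown and 2040 in control cells, 2.06-fold lower, past 2-fold in 6 of 8 other settings). The class I genes themselves were within 2-fold, with H2-D1 at -0.85 and H2-K1 at 0.06. Of 16 chemokines, Ccl8 (1375 in knockdown and 3630 in control cells, 2.76-fold lower) and Ccl6 (251 in knockdown and 617 in control cells, 2.57-fold lower) were lower and 0 higher, and Cxcl10, itself induced by interferons, read 14893 in knockdown and 11700 in control cells (0.28). Of 13 complement genes, Cfb, the factor B protease, was lower at 206 in knockdown and 862 in control cells (4.38-fold lower), C4b lower at 939.9 in knockdown and 2910 in control cells (3.24-fold lower) and C3, the central component, higher at 288433 in knockdown and 118300 in control cells (2.33-fold higher); Cd59a, which blocks the membrane attack complex, was lower at 2637 in knockdown and 5090 in control cells but past 2-fold in only 4 of 8 other settings. Of 20 NF-kB subunits and feedback genes, Birc3 (2624 in knockdown and 7050 in control cells, 2.81-fold lower) and Birc2 (10286 in knockdown and 21100 in control cells, 2.15-fold lower, past 2-fold in 7 of 8 other settings), both ubiquitin ligases of TNF receptor complexes, were lower, and the adaptor Traf1 was higher at 3439.6 in knockdown and 1130 in control cells (2.91-fold higher). Il6 read 217 in knockdown and 620.5 in control cells, 3.00-fold lower at day 0 but 2.35-fold higher at day 2, and Hp, the acute-phase protein haptoglobin, was higher at 1113 in knockdown and 330 in control cells (3.23-fold higher), with a dim control signal.

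The fibrillar matrix itself differed little while several of its associated proteins read lower. Of 21 collagen chains, 0 were lower and 1 higher, at a median of 0.09 that turned negative after quantile, loess or normexp processing or without detrending. Col1a1 and Col1a2, the chains of type I collagen, read 161144 in knockdown and 137000 in control cells and 410832 in knockdown and 369000 in control cells, with log2 ratios of 0.17 and 0.09. The higher chain was Col4a6 of basement membranes, at 1440.2 in knockdown and 659 in control cells, past 2-fold in 4 of 8 other settings. Of 32 small proteoglycans and matricellular proteins 8 were lower and 3 higher, 28 lay below 0, and the median was -0.50. Beside Tgfbi, the lower ones included Fbln1 (1781 in knockdown and 9630 in control cells, 5.65-fold lower) and Fbln5 (3508 in knockdown and 16800 in control cells, 5.01-fold lower), fibulins of elastic fibres, and the proteoglycans Lum (2702 in knockdown and 10000 in control cells, 3.87-fold lower) and Aspn (7429.8 in knockdown and 27100 in control cells, 3.81-fold lower), which bind collagen fibrils. At day 2 Fbln1, Lum and Aspn were 5.22-fold lower, 3.63-fold lower and 30.7-fold lower, while Fbln5 was at -0.07. The higher ones were Spp1, the phosphoprotein osteopontin (38794 in knockdown and 9310 in control cells, 3.99-fold higher, and 10.9-fold higher at day 2), Fbn2, fibrillin 2 (1231 in knockdown and 296 in control cells, 3.98-fold higher), and Fmod, the proteoglycan fibromodulin (7248 in knockdown and 2530 in control cells, 2.74-fold higher). Fn1, fibronectin, was within 2-fold at 126491 in knockdown and 188000 in control cells (-0.64).

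Among 21 matrix proteases and Timp inhibitors, 3 were lower and 4 higher. Beside Timp3 and Mmp3, Adamts5, an aggrecan-degrading protease, was lower at 417 in knockdown and 1060 in control cells (2.66-fold lower, and 5.62-fold lower at day 2). Mmp9, a gelatinase, was higher at 7707 in knockdown and 1757 in control cells (4.2-fold higher, and 2.53-fold higher at day 2), and Adamts9 was higher at 5058 in knockdown and 1890 in control cells (2.56-fold higher) but not at day 2 (-0.04). The other higher members, Timp4 (407 in knockdown and 134 in control cells) and Mmp17 (589 in knockdown and 217 in control cells), had dim control signals and each stayed past 2-fold in 6 of 8 other settings. Timp1 and Timp2 had log2 ratios of -0.08 and -0.41, and the collagenase activator Mmp14 had -0.93, so the inhibitors of this family differed widely in the size of their ratio. Of 23 integrin and laminin subunits, 5 were lower and 2 higher. Nid2, which links laminin to collagen IV, read 1646 in knockdown and 13200 in control cells, 8.39-fold lower, the collagen receptor subunit Itga11 1471 in knockdown and 4480 in control cells, 3.18-fold lower, and Itgb3, a beta subunit of vitronectin receptors, 3371 in knockdown and 9470 in control cells, 2.94-fold lower. Itgb7, a beta subunit of leukocyte integrins, read 2337 in knockdown and 548 in control cells, 4.08-fold higher. Nid2, Itga11 and Itgb3 were lower at day 2 as well, by 6.93-fold, 2.75-fold and 3.41-fold, and Itgb7 was 3.08-fold higher.

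Contractile genes of smooth muscle and myofibroblasts are switched on by the factor SRF and its partner MRTF through the CArG box. The promoter of Myl9, the regulatory myosin light chain, is shown because its gene was lower on both days and its window holds such a box, in capitals.
Myl9, chr2:156775214-156775513, plus strand: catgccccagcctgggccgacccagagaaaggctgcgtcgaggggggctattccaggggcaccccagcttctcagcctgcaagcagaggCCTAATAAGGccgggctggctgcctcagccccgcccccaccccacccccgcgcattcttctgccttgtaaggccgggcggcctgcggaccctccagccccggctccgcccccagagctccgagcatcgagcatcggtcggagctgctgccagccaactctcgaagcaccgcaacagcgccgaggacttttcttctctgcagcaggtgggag
In the 300-base windows, 4 of 15 members of the list with a window (26.7%) held a CArG box on either strand, against 1.81% of all genes and 1.64% of kept genes. The box was present in 1 of the 2 lower members with a window, Myl9, and in 3 of the 13 within 2-fold (23.1%). These counts are a description of the sequence only. Of 17 kept members 4 were lower and 0 higher, at a median of -0.47. Beside Actg2, these were Tagln, the actin-bundling transgelin (2077 in knockdown and 17500 in control cells, 8.81-fold lower), Acta2, the alpha actin of smooth muscle (49428 in knockdown and 182111 in control cells, 3.86-fold lower), and Myl9 (34106 in knockdown and 114000 in control cells, 3.5-fold lower). At day 2 Tagln was 2.02-fold lower, Acta2 15.6-fold lower and Myl9 35.4-fold lower. The other 13 members were within 2-fold, among them Cnn2 at -0.57, Myh9, a non-muscle myosin, at -0.48, and Srf itself at 0.14. Actb, the cytoskeletal beta actin, read 454017 in knockdown and 405000 in control cells (0.10). Acta1, the alpha actin of skeletal muscle, was 4.29-fold lower, at 1227 in knockdown and 5030 in control cells. Of 14 genes of the sarcoglycan and dystrophin complex, Sgcb was lower, while Sgcd and Sgce had log2 ratios of -0.42 and -0.43.

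Of 22 CCN proteins and YAP/TEAD genes, which respond to cell tension, 3 were lower and 1 higher. Ccn4 (WISP1), a Wnt-induced secreted protein, read 8629 in knockdown and 23800 in control cells (2.88-fold lower), the TEAD cofactor Vgll3 398 in knockdown and 1220 in control cells (3.2-fold lower), and Ccn5 5538 in knockdown and 11900 in control cells (2.25-fold lower, past 2-fold in 7 of 8 other settings). Ccn5 was 3.47-fold higher at day 2. Ankrd1, a YAP target, read 13864 in knockdown and 4740 in control cells, 2.8-fold higher, while the classic targets Ccn1 and Ccn2 had log2 ratios of 0.17 and -0.71. Yap1 itself read 122863 in knockdown and 200000 in control cells (-0.77).

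Of the signalling lists, the Wnt list held the most lower members among kept genes: 9 of 23 were lower and 1 higher, at a median of -0.58. Wnt10a, Wnt9a, Rspo3 and Lgr4 passed the limit of 400 only in control cells. Over 400 on both arrays, 5 of 17 were lower and 0 higher, at a median of -0.51, against 2.89% lower of all such genes. The list of semaphorins and related genes, below, also held 5 lower members there, of 31. Wnt ligands keep preadipocytes undifferentiated, R-spondins amplify their signal through LGR receptors, and secreted frizzled-related proteins bind the ligands. The ligands Wnt10a (188 in knockdown and 609 in control cells, 3.38-fold lower) and Wnt9a (393 in knockdown and 1020 in control cells, 2.72-fold lower) were lower, with the knockdown signal under 400. The R-spondin Rspo3 read 289 in knockdown and 4790 in control cells, 17.3-fold lower, and Rspo2 632 in knockdown and 1440 in control cells, 2.38-fold lower. Their receptor Lgr4 read 148 in knockdown and 889 in control cells, 6.28-fold lower. The frizzled receptor Fzd4 was 3.06-fold lower, at 1254 in knockdown and 3670 in control cells, and Fzd7 2.19-fold lower, at 1292 in knockdown and 2710 in control cells, past 2-fold in 6 of 8 other settings. Sfrp2 read 700 in knockdown and 16800 in control cells, 25.1-fold lower, and Nkd2, an inhibitor of Dishevelled, 3884 in knockdown and 8650 in control cells, 2.33-fold lower, past 2-fold in 7 of 8 other settings. The higher ligand was Wnt5b, at 429 in knockdown and 197 in control cells and past 2-fold in 5 of 8 other settings. Wnt10b, the ligand best known to hold 3T3-L1 cells undifferentiated, read 523 in knockdown and 452 in control cells (0.15), and the effectors Ctnnb1 and Lef1 had log2 ratios of 0.17 and 0.92. At day 2 Sfrp2 was 8.06-fold lower, Rspo3 6.64-fold lower, Lgr4 3.55-fold lower and Fzd4 2.14-fold lower, while Wnt9a was at -0.37.

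Of 16 BMP genes 3 were lower and 1 higher. The secreted BMP antagonist Grem1 was lower (8211 in knockdown and 29400 in control cells, 3.74-fold lower), and 2.63-fold lower at day 2. The receptor Acvrl1 was lower at 507 in knockdown and 1200 in control cells (2.48-fold lower), and Chrdl1, another antagonist, higher at 1636 in knockdown and 743 in control cells (2.11-fold higher, past 2-fold in 5 of 8 other settings). The target gene Id1 had a log2 ratio of -0.81. Of 25 TGF-beta and activin genes, Ltbp2, a latent TGF-beta binding protein of microfibrils, was lower at 19790.1 in knockdown and 54100 in control cells (2.86-fold lower, and 11.9-fold lower at day 2), Fstl1 was lower at 121227 in knockdown and 260000 in control cells (2.24-fold lower, past 2-fold in 7 of 8 other settings), and Inhbb, a subunit of activin B, was higher at 8006 in knockdown and 3020 in control cells (2.54-fold higher, and 2.89-fold higher at day 2). The ligand Tgfb1 read 624 in knockdown and 789.5 in control cells (-0.40), the receptor Tgfbr2 37371 in knockdown and 30800 in control cells (0.21) and the transducer Smad3 26656 in knockdown and 21800 in control cells (0.23), none past 2-fold.

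In the Notch list of 10 genes, the receptor Notch1 was higher at 3450.3 in knockdown and 1080 in control cells (3.06-fold higher), its ligand Jag1 lower at 5799 in knockdown and 11700 in control cells (2.11-fold lower, past 2-fold in 7 of 8 other settings), and the target Hes1 lower at 382 in knockdown and 1480 in control cells (4.05-fold lower). At day 2 these had log2 ratios of 0.58, -0.79 and 0.30. In the IGF list of 12, the binding protein Igfbp6 (43156 in knockdown and 14700 in control cells, 2.81-fold higher) and the protease Htra1 (8885 in knockdown and 2930 in control cells, 2.9-fold higher) were higher, and Pappa, which cleaves IGF-binding proteins (394 in knockdown and 1220 in control cells, 3.24-fold lower), and its inhibitor Stc1 (414 in knockdown and 1190 in control cells, 3.00-fold lower) lower. Igf1 and Igf1r had log2 ratios of -0.12 and 0.08. Of 13 FGF genes, the ligand Fgf10 was lower at 2639 in knockdown and 5574 in control cells (2.21-fold lower, past 2-fold in 7 of 8 other settings), and Etv4, a factor induced by FGF signals, higher at 13066 in knockdown and 4120 in control cells (3.03-fold higher). Of 24 genes of the VEGF, PDGF, HGF and EGF families, Hgf was lower at 540.5 in knockdown and 1320 in control cells (2.55-fold lower), while its receptor Met was higher at 913 in knockdown and 262 in control cells (3.35-fold higher), with a control signal in the dim range and -0.05 at day 2. Pdgfb was higher at 2408 in knockdown and 769 in control cells (2.99-fold higher), Angptl4, which inhibits lipoprotein lipase, at 55325 in knockdown and 25600 in control cells (2.07-fold higher). Of 31 semaphorins, ephrins, netrins and their receptors, 5 were lower and 3 higher. Sema3c read 3143 in knockdown and 21800 in control cells, 7.25-fold lower, and Sema3a 2434 in knockdown and 8950 in control cells, 3.84-fold lower, whereas Sema7a read 7559.8 in knockdown and 1600 in control cells, 4.52-fold higher, beside Sema5a above. At day 2 Sema3c was at 0.05 and Sema3a 4.2-fold lower.

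Both cultures read as fibroblasts. All 18 fibroblast markers were kept, and Col1a2, Vim (297987 in knockdown and 295000 in control cells) and Dcn (231917 in knockdown and 313000 in control cells) were bright in both. Of these markers 2 were lower, Lum and Thy1, at 20584 in knockdown and 58500 in control cells (2.97-fold lower). Of 18 surface markers of mesenchymal progenitors, Pi16, found on adventitial fibroblast progenitors, was lower at 822 in knockdown and 3260 in control cells (4.15-fold lower), Thy1 lower and Cd24a higher at 3773 in knockdown and 1700 in control cells (2.12-fold higher, past 2-fold in 6 of 8 other settings). Pdgfra, the receptor that marks adipocyte progenitors, read 41852 in knockdown and 23390 in control cells (0.77), Ly6a, which codes for Sca-1, 21192 in knockdown and 27900 in control cells (-0.46), and Cd34 526 in knockdown and 694 in control cells (-0.46), none past 2-fold. Of 16 Hox genes, which record body position, Hoxc9 (251 in knockdown and 1650 in control cells, 6.87-fold lower) and Hoxc13 (204 in knockdown and 927 in control cells, 4.75-fold lower) were lower, and 3.88-fold lower and 3.18-fold lower at day 2. Hoxa9 was higher at 441 in knockdown and 112 in control cells, in the dim range, and at -0.11 at day 2. Few markers of other cell types were kept: 6 of 15 for macrophages and leukocytes, 4 of 14 for endothelium, 2 of 14 for epithelium, 7 of 19 for skeletal muscle and 6 of 18 for bone and cartilage. Lyz2, a lysozyme of macrophages, was lower at 79.5 in knockdown and 478 in control cells (6.28-fold lower), and Csf1r was at 0.35. The higher members were dim in control cells for skeletal muscle (Myh1, Tnni1 at 818 in knockdown and 165 in control cells, Myod1 at 598 in knockdown and 184 in control cells and Tnnc2 at 575 in knockdown and 275 in control cells, past 2-fold in 3 of 8 other settings). Both kept epithelial markers were higher at day 0: Krt5 was dim in control cells (568 in knockdown and 217 in control cells, past 2-fold in 6 of 8 other settings), and Esrp1, a splicing factor of epithelia, was not (1183 in knockdown and 479 in control cells, past 2-fold in 5 of 8 other settings). Their log2 ratios at day 2 were 0.11 and -0.09. Cldn3, a claudin of epithelial tight junctions, was among the genes with only a bound and lay below control. In bone and cartilage Sp7 (507 in knockdown and 137 in control cells) was dim too, while Phex (2132 in knockdown and 678 in control cells) and Spp1 were not. Their part in other results was not tested.

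Regulators of adipogenesis were mostly within 2-fold before induction. Pparg, the master regulator, read 5282 in knockdown and 4998 in control cells (0.02). Cebpa, which it acts with, read 899.6 in knockdown and 1720 in control cells (-0.999), just short of the 2-fold limit. The early factors Cebpb and Cebpd read 46207 in knockdown and 36200 in control cells (0.29) and 39486 in knockdown and 51500 in control cells (-0.45). At day 2 Pparg was 2.68-fold lower and Cebpa 3.6-fold lower, so knockdown cells were level with control for Pparg when confluent and below it when induced. Of 20 pro-adipogenic factors, Zfp467 was lower at 2563 in knockdown and 6290 in control cells (2.57-fold lower, 4 probes from -1.36 to -0.31, past 2-fold in 7 of 8 other settings), and Klf5 (1838 in knockdown and 824 in control cells, 2.13-fold higher, past 2-fold in 7 of 8 other settings) and Ebf2 (1102 in knockdown and 443 in control cells, 2.38-fold higher, past 2-fold in 6 of 8 other settings) were higher. Of 25 anti-adipogenic regulators 3 were lower and 0 higher: Hes1 above, Ddit3, the C/EBP-inhibiting factor CHOP (7462 in knockdown and 20800 in control cells, 2.91-fold lower), and Klf2, a repressor of Pparg (4391 in knockdown and 10800 in control cells, 2.57-fold lower). At day 2 these were at 0.30, -0.25 and 0.65. Dlk1, the preadipocyte surface protein Pref-1, read 401332 in knockdown and 369000 in control cells (0.06).

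Of 18 fat-cell genes 5 were higher and 0 lower, at a median of 0.22. Fabp4, the fatty acid binding protein of adipocytes, read 5068 in knockdown and 907 in control cells, 5.34-fold higher, and was 6.12-fold higher at day 2. Fabp5 read 186048 in knockdown and 84600 in control cells, 2.1-fold higher, past 2-fold in 7 of 8 other settings. Both lie on chromosome 3, and with that chromosome left out 3 members were higher, at a median of 0.13. Those 3 had dim control signals: Adig, adipogenin (553 in knockdown and 90.8 in control cells), Lep, leptin (422 in knockdown and 106 in control cells), and Aqp7, a glycerol channel (507 in knockdown and 141 in control cells), and were at 0.04, -0.12 and 0.13 at day 2. Lpl, lipoprotein lipase, read 61932 in knockdown and 87700 in control cells (-0.57), and Plin4, a lipid droplet protein, 5310.5 in knockdown and 9890 in control cells (-0.96, and 10.3-fold lower at day 2). The Fabp4 reading was thus the only fat-cell call at day 0 that was bright in both cultures and past 2-fold in the same direction at day 2. Of 21 genes of prostaglandin and retinoid handling, Ptgis, prostacyclin synthase (15405 in knockdown and 37100 in control cells, 2.52-fold lower), Dhrs3, which reduces retinal (5326 in knockdown and 12100 in control cells, 2.38-fold lower), and the prostaglandin E2 receptor Ptger1 (410.2 in knockdown and 1170 in control cells, 2.98-fold lower) were lower.

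Of the cell cycle lists, that of G2 and mitosis had the most members higher in the confluent knockdown culture, 9 of 28. Mitotic genes are held off in resting cells by the DREAM complex, which binds the cell cycle homology region (CHR), TTTGAA. The Mki67 promoter is shown because this proliferation marker was higher and its window holds the element, in capitals.
Mki67, chr7:135716330-135716629, minus strand: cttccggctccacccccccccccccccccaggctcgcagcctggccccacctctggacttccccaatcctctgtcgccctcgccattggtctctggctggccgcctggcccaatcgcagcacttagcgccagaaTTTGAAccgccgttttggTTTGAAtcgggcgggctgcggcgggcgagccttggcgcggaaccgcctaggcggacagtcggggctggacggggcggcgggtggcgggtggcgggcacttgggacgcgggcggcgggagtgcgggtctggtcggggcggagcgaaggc
It held 2 matches, counted on either strand. Of 23 genes of G2 and mitosis with a window, 16 (69.6%) held a match, against 20.2% of all genes and 14.7% of kept ones, with 7 of 8 among the higher members (87.5%) and 9 of 15 among those within 2-fold (60%). Of 28 kept members, 9 were higher and 0 lower, all 28 lay above 0, and the median was 0.82. Ccna2, cyclin A2, read 13582 in knockdown and 5200 in control cells, 2.5-fold higher. Mki67 read 21393 in knockdown and 8640 in control cells, 2.37-fold higher, and its 2 probes gave 1.13 and 1.24. The spindle kinesins Kif11 (1481 in knockdown and 608 in control cells, 2.33-fold higher) and Kif23 (6459.6 in knockdown and 2800 in control cells, 2.21-fold higher) and the kinetochore proteins Cenpe (21570.5 in knockdown and 8940 in control cells, 2.31-fold higher) and Cenpa (15478 in knockdown and 6880 in control cells, 2.15-fold higher) were higher as well. The remaining higher members were Hmmr (5847 in knockdown and 2610 in control cells), Ccnb2 (18519.5 in knockdown and 8700 in control cells) and Bub1b (8054 in knockdown and 3830 in control cells), which lay between 1.01 and 1.10, and each held in 6 of 8 other settings. Cdk1, the mitotic kinase, read 17608 in knockdown and 11800 in control cells (0.51). Ccna2 and Cenpe lie on chromosome 3, and without it 7 of 26 members were higher, at a median of 0.81. Of 37 S phase genes 3 were higher, a share near the 7.45% of all genes, 34 lay above 0 and the median was 0.57. These were Pole, the catalytic subunit of DNA polymerase epsilon (11789.9 in knockdown and 4900 in control cells, 2.3-fold higher), the activator E2f2 (944 in knockdown and 379 in control cells, past 2-fold in 6 of 8 other settings) and thymidine kinase Tk1 (16588 in knockdown and 7890 in control cells, past 2-fold in 6 of 8 other settings). At day 2, when induced 3T3-L1 cells re-enter the cycle, the medians of the lists were -0.25 and -0.26.

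The genes that set entry into the cycle were closer to control. Of 18 G1 cyclins, kinases and brakes, Cdk6 was higher at 1095 in knockdown and 407 in control cells (2.57-fold higher) and 0 were lower, at a median of -0.10. Ccnd1, cyclin D1, read 61252 in knockdown and 47700 in control cells (0.30), Myc 7539.9 in knockdown and 4645 in control cells (0.64), and Cdkn1a, the p21 inhibitor, 6187 in knockdown and 10530 in control cells (-0.83). Cdkn2a read 101118 in knockdown and 107000 in control cells (-0.15). Of 22 p53 targets, Gadd45a was lower at 6048 in knockdown and 12300 in control cells (2.13-fold lower, past 2-fold in 7 of 8 other settings), and Mdm2, which was bright in both cultures, read 506529 in knockdown and 503000 in control cells (-0.05).

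Of 23 glycolytic genes 6 were higher and 0 lower at day 0, 19 lay above 0 and the median was 0.50. At day 2, 3 were higher and 0 lower, at a median of 0.49. Aldoc, aldolase C, read 1121 in knockdown and 367 in control cells, 2.92-fold higher. Slc16a3, the lactate exporter MCT4, read 1255 in knockdown and 549 in control cells (past 2-fold in 5 of 8 other settings), Pdk1, which keeps pyruvate out of mitochondria, 8077 in knockdown and 3650 in control cells, 2.12-fold higher, and the enolase Eno2 5356 in knockdown and 2480 in control cells (past 2-fold in 7 of 8 other settings). The abundant enzyme Pgk1 read 286776 in knockdown and 136000 in control cells (1.01, past 2-fold in 7 of 8 other settings), Pgam1 224952 in knockdown and 123000 in control cells (0.81) and Gapdh 344360 in knockdown and 290000 in control cells (0.18). The glucose transporter Slc2a1 lay on the other side at 26296 in knockdown and 34900 in control cells (-0.47). Of 19 hypoxia-responsive genes 4 were higher and 2 lower, at a median of 0.36 and 0.59 at day 2. Egln3, a prolyl hydroxylase that marks HIF for degradation, read 5395 in knockdown and 1580 in control cells, 3.27-fold higher, and Bnip3, a mitophagy receptor, 57515 in knockdown and 21900 in control cells, 2.51-fold higher. Higd1a was 2.24-fold higher, at 85180.4 in knockdown and 36400 in control cells, and Car9, a carbonic anhydrase, 5.96-fold higher, at 589 in knockdown and 94.5 in control cells, from a dim control signal. The lower members were Adm, adrenomedullin (3399 in knockdown and 10300 in control cells, 3.17-fold lower), and Ero1a, an oxidase of the endoplasmic reticulum (2560.3 in knockdown and 5240 in control cells, past 2-fold in 6 of 8 other settings). Vegfa and Hif1a had log2 ratios of -0.17 and 0.08.

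Of 26 genes of cholesterol synthesis and sterol sensing, 23 lay above 0, at a median of 0.30, and Cyp51, the lanosterol demethylase, was higher at 4090.3 in knockdown and 1610 in control cells (2.43-fold higher). Sqle, which epoxidises squalene, read 62866 in knockdown and 34400 in control cells (0.81). Of 32 genes of the unfolded protein and integrated stress response 5 were lower and 0 higher, at a median of -0.32. They were Trib3, a pseudokinase induced by ATF4 (25551 in knockdown and 97400 in control cells, 3.99-fold lower), Ddit3 above, Chac1, which degrades glutathione (13556 in knockdown and 31200 in control cells, 2.41-fold lower), Atf3 (589 in knockdown and 1360 in control cells, 2.42-fold lower) and the amino acid transporter Slc7a5, whose 2 probes disagreed in sign at -1.16 and 0.61 and whose call held in 6 of 8 other settings. Atf4 and the chaperone Hspa5 (BiP) had log2 ratios of -0.20 and -0.01. At day 2 Trib3 was at -0.66, Chac1 at -0.19 and Atf3 at 0.01, so these differences were not seen past 2-fold in induced cells. Of 14 genes of cysteine and sulfur metabolism, Cdo1 and Sqor, which oxidises sulfide (9215 in knockdown and 23700 in control cells, 2.69-fold lower), were lower and Cbs higher at 701 in knockdown and 267 in control cells, with a dim control signal and past 2-fold in 6 of 8 other settings. Of 18 heat shock chaperones Cryab was lower at 20335 in knockdown and 43100 in control cells (2.22-fold lower, past 2-fold in 7 of 8 other settings).

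Several lists held no kept gene past 2-fold, against 7.45% and 3.86% of all genes. These were 26 NRF2 targets and glutathione genes at a median of -0.03, 32 ribosomal proteins at 0.09 and 26 ribosome biogenesis genes at 0.23. Also without one were 29 proteasome subunits at 0.06, 32 genes of the respiratory chain at -0.08 and 13 cadherins and gap junction genes at -0.19. The array held 31 cadherin and gap junction genes. Among those not kept, Cdh22 had only a bound, at least 20.4-fold higher, given below. Ribosomal, proteasomal and respiratory chain genes are abundant, and their signals lay well above 400. Of 16 housekeeping genes 1, Pgk1, was past 2-fold, at a list median of 0.20.

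Some genes were read well above background on only 1 of the day 0 arrays, so their ratio has only a bound, set against the dim culture's own signal or, where that is higher, the dimmest signal that counts as above background on its array. Robo2, a receptor of Slit guidance cues, read 1498 in knockdown and 33 in control cells, at least 43.4-fold higher, and at day 2 it read 1473 in knockdown and 29.9 in control cells. Car12, a carbonic anhydrase, was at least 36.7-fold higher, at 1072 in knockdown and 20.7 in control cells. Cdh22, a cadherin, read 594 in knockdown and 12.9 in control cells, Tafa1, a secreted chemokine-like protein, 493 in knockdown and 17.6 in control cells, and Cyp2g1, a cytochrome P450 of the nose, 452 in knockdown and 29.6 in control cells, at least 20.4-fold, 16.9-fold and 14.6-fold higher. In the other direction Cpne8, a copine, read 3.13 in knockdown and 1010 in control cells, at least 67.3-fold lower, and 4.8 in knockdown and 523 in control cells at day 2. Chst8, a sulfotransferase, was at least 33.6-fold lower, at 12.4 in knockdown and 504 in control cells, and read 11 in knockdown and 568 in control cells at day 2. Kcnk5, a potassium channel, read 10.6 in knockdown and 786 in control cells, at least 52.4-fold lower, and Cldn3, a tight junction protein, 3.13 in knockdown and 784 in control cells, at least 52.2-fold lower. Robo2, Car12, Cdh22, Cpne8 and Chst8 showed the same order of cultures at day 2. Cyp2g1 read 101 in knockdown and 125 in control cells at day 2, a small difference in unscaled signals. Tafa1 was dim in both day 2 cultures, at 13.3 in knockdown and 17.5 in control cells. For Kcnk5 and Cldn3 both day 2 cultures were dim, at 15.6 in knockdown and 5.37 in control cells for Kcnk5 and 3.88 in knockdown and 27.7 in control cells for Cldn3.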

How the data were processed

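Total RNA of 4 cultures was hybridised to Agilent 1-colour mouse arrays, and the deposited files hold, by their headers, the output of Agilent Feature Extraction version 10.7.3.1. The intensity of each spot is the processed Cy3 signal that the authors' scanner software made by subtracting background and, on 3 of the arrays, a fitted surface trend, per the file headers. No step between arrays is recorded there.

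Samples were grouped by their titles and genotype labels. Control spots and spots marked as non-uniform or as population outliers (7 and 171 on the knockdown, 63 and 199 on the control day 0 array) were left out, no spot was saturated, and repeat spots were averaged. Log2 signals were centred on the array's 75th percentile (1652.1 for the knockdown and 1580 for the control day 0 array). Probes were named by RefSeq accession, without its version, through a RefSeq table of GRCm38.p6, from which names, chromosomes and the distance between neighbouring genes were taken. Ratios were computed with Python 3.11.15, numpy 2.4.6 and pandas 2.3.3, plotted with matplotlib 3.10.9, and the alternatives run with limma 3.58.1 in R 4.3.3 (normexp with offset 50, quantile, cyclic loess). A gene was called at 2-fold, with no test, since the number of arrays, 1 per condition, limits the precision.

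The members and gene lists were chosen with earlier results of these data known. Genes were named by rule: the 15 largest ratios in each direction whose probes agreed in sign, the 5 largest bounds per direction, up to 4 members past 2-fold per list with its ligands, receptors, rate-limiting enzymes and master regulators, and a fixed set of markers. Some genes under this rule are left unprinted, and the genes picked for brightness on both arrays and the chromosome medians were chosen after their values were seen. Promoter windows were available for 63 of the 79 kept members of the 3 lists searched for motifs.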

Additional observations from a re-analysis of the deposited data

Results flagged for a closer look

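Among the 226 named genes past 2-fold at day 0, 3 lay past 2-fold on the other side of control at day 2. Over all genes that could be compared, 14 of the 872 higher at day 0 were lower at day 2. Of the 426 lower at day 0, 4 were higher at day 2. With 1 array per culture, the difference between the days was not tested. Ccn5, a secreted protein of the CCN family, had log2 ratios of -1.17 at day 0 and 1.79 at day 2. Ebf2, a factor of brown and beige fat progenitors, had 1.25 at day 0 and -1.39 at day 2. Il6, the cytokine interleukin 6, had -1.58 at day 0 and 1.23 at day 2. The day 2 cultures had been given inducer, and their arrays shared a slide.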

How the results depend on the processing

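The count of genes higher by 2-fold was 881, and it was 568 after cyclic loess, 1582 with signals over 200 and 374 with signals over 1000 on at least 1 array, 325 with signals over 400 on both and 2405 with no minimum. The count of lower genes was 457, and it was 703 with no minimum. At 1.5-fold 1752 genes were higher and 1210 lower, and at 3-fold 363 and 217. The share of called genes that were higher was 51.2% with signals over 1000, 51.3% with signals over 400 on both arrays and 77.4% with no minimum. The Lamp2 probe NM_001017959 had log2 ratios of -1.98 when centred on the kept probes, -1.98 after quantile normalization, -1.91 with normexp, -1.92 without detrending and -1.81 when scaled to the spike-ins. For NM_010685 the same settings gave -0.30, -0.45, -0.45, -0.43 and -0.13. The median of the skeletal muscle markers, 1.00 in the values reported, was -2.10 with signals over 1000 and -1.21 with signals over 400 on both arrays, where fewer members were left. None of the 226 named genes past 2-fold changed sign under the 8 other settings, and 53 came under 2-fold in at least 1 of them. Centring on the kept probes and scaling to the spike-ins shift every log2 ratio by a constant, 0.06 and 0.23. Neither can turn the sign of a gene past 2-fold. The cause of the differences between settings was not tested. Scaling to the spike-ins, list medians over 400 on both arrays and the chromosome medians were added after seeing the data. No paired analysis was possible because each condition has 1 array, which also leaves no replicate to leave out.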

Other observations

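The array also held 6874 kept probes without a gene name, of which 1408 (20.5%) were higher and 183 (2.66%) lower in knockdown cells, at a median log2 ratio of 0.28. Over 400 on both arrays, 327 of 4977 (6.57%) were higher and 74 (1.49%) lower, at a median of 0.14. The brightest of those furthest above control were 2 probes that the array design names by the same stretch of chromosome 15. They read 100214 and 74210 in knockdown cells, against 8210 and 6030 in control cells, with log2 ratios of 3.55 and 3.56 at day 0 and 3.04 and 3.01 at day 2. Furthest below control was the transcript BC048373, at 2572 in knockdown and 29000 in control cells, with log2 ratios of -3.56 at day 0 and -3.07 at day 2. A probe named by a stretch of chromosome 1 read 917 in knockdown and 7650 in control cells, with log2 ratios of -3.12 and -2.76.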
